A study of Homo sapiens with 8 samples.

Results

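The WNT ligands, receptors and targets described here are 10 genes of the WNT pathway: the ligands WNT5A, WNT7B and WNT10A, the receptors FZD2, FZD7 and LRP6, the nuclear factor TCF7L2, and the feedback or inhibitory genes AXIN2, DKK1 and RNF43. They were chosen by name, by matching Ensembl gene identifiers without version to symbols in GENCODE release 44. The choice was made with earlier results of these data known, so shares set beside all genes or peaks are descriptive only. All 10 were found among the 43869 genes with values, and 121 of the 126470 H3K27ac peaks lay within 20 kb of them. Bulk RNA-seq and H3K27ac ChIP-seq were available for 4 lines: naive H3122, a human lung adenocarcinoma line with the EML4-ALK fusion gene, and the resistant lines erCriz0, erAlec0 and erLor0 derived from it. These lines were made with stepwise rising doses of tyrosine kinase inhibitors of ALK (ALK-TKI), and their final doses were 0.5 µM of crizotinib for erCriz0, 2 µM of alectinib for erAlec0 and 2 µM of lorlatinib for erLor0. All lines share the H3122 background and were cultured in RPMI with serum, all chromatin came from cells labelled as kept in DMSO, and cells for RNA had spent 48 h off inhibitor. Each derivative is a single evolved culture of a single cell line, and each line gave 1 library of each kind, so no difference could be set against replicate error and no test was run. The 8 samples described for the series are chromatin libraries, and the RNA columns were assigned to the 4 lines by the line names they carry.

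WNT proteins are secreted, lipid-modified ligands that bind Frizzled receptors. In the β-catenin branch, a Frizzled receptor joins the co-receptor LRP5 or LRP6, the complex that destroys β-catenin is inhibited, and β-catenin enters the nucleus and binds TCF/LEF factors at target genes. Other WNT ligands signal through Frizzled and ROR receptors without β-catenin. In the lung the pathway is known for its part in branching during development and in epithelial regeneration. H3K27ac, acetylation of lysine 27 of histone H3, marks active promoters and enhancers.

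Values are rlog values, read counts scaled between libraries and put on a log2 scale with low counts shrunk together. A change is the difference in rlog value between a resistant line and naive cells, positive where the resistant line was higher, and genes or peaks were called up at a change of at least 1, a 2-fold difference, and down at -1 or less. The 3 comparisons share the naive libraries and are not independent of each other. A gene was taken as expressed where its rlog value reached 4.64, the log2 of 25, in at least 1 library. This held for 12701 genes, among them 8 of the 10 WNT genes but neither WNT10A nor AXIN2. All 6 epithelial markers were high, from 11.4 to 15.2. Of 4 lung markers only the factor NKX2-1 reached 4.64, and it lay between 8.67 and 9.18. NAPSA lay between 3.53 and 4.23, and the surfactant genes SFTPB and SFTPC lay between 1.64 and 2.03 and at 0. The immune marker PTPRC was at 0 and none of 4 immune markers reached 4.64. Of 5 fibroblast markers only COL1A1 did, and of 4 endothelial markers PECAM1 and VWF lay below 0.2 in all 4 lines, while KDR lay between 5.43 and 7.01 and CDH5 between 4.10 and 5.78.

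DKK1 and WNT5A were the WNT genes whose RNA rose past the limit. DKK1 rose in erAlec0 and erLor0, and WNT5A rose in erCriz0, so that 1 of the 10 genes was up in each line and 0 were down. Among all expressed genes 2.65%, 2.46% and 1.10% were up in erCriz0, erAlec0 and erLor0, and 1.65%, 2.07% and 0.740% were down. The median RNA change over the 8 expressed WNT genes was 0.06, 0.20 and 0.04 for these lines, beside -0.02, 0.00 and 0.00 over all expressed genes. In bulk samples, a gene made by fewer cells and a gene made at a lower level per cell cannot be told apart.

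**Figure D1:**
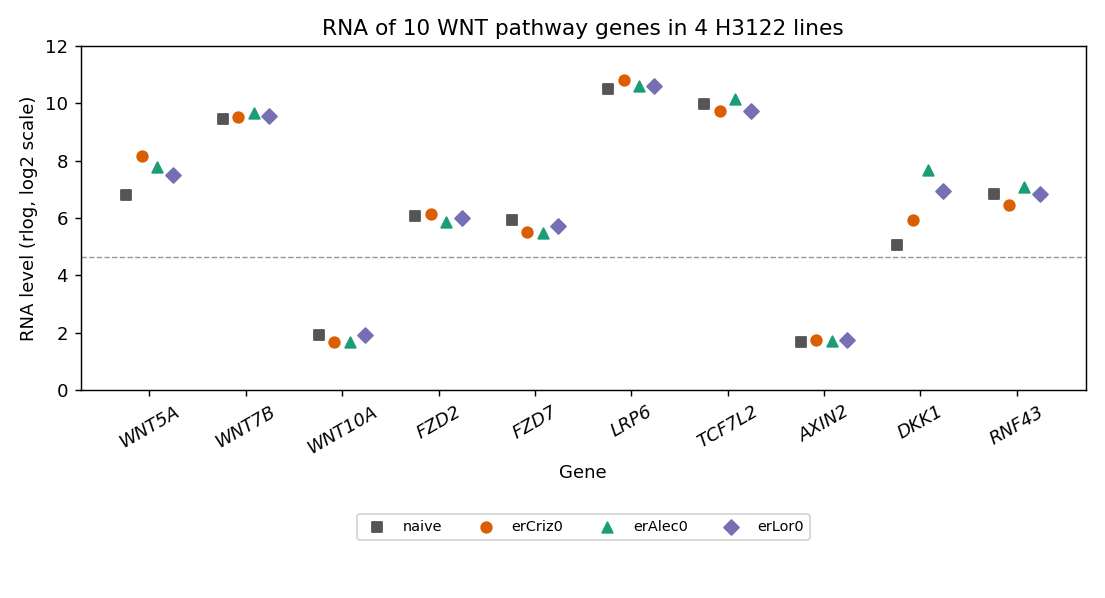
RNA level of the 10 WNT genes (rlog, log2 scale) in naive, erCriz0, erAlec0 and erLor0 cells, 1 point per library, with the dashed line at 4.64. DKK1 ranges from 5.06 to 7.67 and WNT5A from 6.82 to 8.16, while WNT10A and AXIN2 lie below 2 in all 4 libraries.

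Levels of different genes were set side by side only after the log2 of the exon length in kb had been subtracted. On this scale TCF7L2 at 7.22, LRP6 at 7.12 and WNT7B at 7.11 were the highest in naive cells. RNF43 at 4.18, FZD2 at 4.16, WNT5A at 3.98, DKK1 at 3.90 and FZD7 at 3.74 formed a middle group that spanned less than 0.5. Exon lengths came from GENCODE release 44, where RNF43 and FZD7 have other coordinates than in the deposited data. The places of these genes within the middle group are therefore uncertain. WNT10A at 0.39 and AXIN2 at -0.70 came last. Without replicates the spread within the upper 3 and the middle 5 genes could not be set against an error. In erAlec0 cells DKK1 reached 6.52 per kb and in erLor0 cells 5.80, which placed it above the rest of its naive group, and WNT5A reached 5.32 in erCriz0 cells.

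Among the ligands, WNT5A, which signals mainly without β-catenin, had an rlog RNA level of 6.82 in naive cells beside 8.16, 7.78 and 7.52 in erCriz0, erAlec0 and erLor0 cells. All 3 resistant lines were above naive cells, with erCriz0 the highest. The changes of 1.34, 0.96 and 0.70 correspond to 2.52-fold, 1.95-fold and 1.62-fold differences, and only the change in erCriz0 passed the limit, where 176 of the 12701 expressed genes rose at least as much. WNT5A is transcribed from the minus strand of chr3:55465715-55490539 (hg38) and was paired with 2 peaks. The larger one, at chr3:55485309-55490406 inside the gene and 133 bases from its start, had H3K27ac levels of 8.23 in naive cells beside 7.83, 9.08 and 9.08 in erCriz0, erAlec0 and erLor0 cells. The peak was therefore lowest in erCriz0, where the RNA was highest, with changes of -0.40, 0.85 and 0.85. The other peak, at chr3:55490903-55491406 just upstream of the gene, had levels of 3.52, 3.15, 4.69 and 3.81 in the same order, and its change of 1.17 in erAlec0 passed the limit. Both peaks were also within 20 kb of ERC2 and WNT5A-AS1, an antisense gene that shares no exon base with WNT5A. The central 300 bases of the upstream peak are shown because this was the WNT5A peak that passed the limit. They overlap no annotated exon and are given from the plus strand with any TCF/LEF motif in capitals, as in all windows printed here:
WNT5A upstream peak, chr3:55491005-55491304: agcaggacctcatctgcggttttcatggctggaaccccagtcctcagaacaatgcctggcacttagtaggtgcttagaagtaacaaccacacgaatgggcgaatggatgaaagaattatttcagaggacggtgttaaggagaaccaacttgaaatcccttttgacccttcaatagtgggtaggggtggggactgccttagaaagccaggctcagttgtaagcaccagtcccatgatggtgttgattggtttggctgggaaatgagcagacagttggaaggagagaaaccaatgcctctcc

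The TCF/LEF motif was searched as the letters CTTTGAT and CTTTGTT on both strands, which do not overlap each other. It was found in the central 300 bases of 12786 of 126468 peaks, 10.1%, and of 8 of the 121 peaks at WNT genes, 6.61%. The WNT5A window held no match. A match describes letters and not a bound site.

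WNT7B, a ligand of the β-catenin branch known from lung development, was the most highly expressed of the 3 ligands per kb. Its rlog RNA level was 9.46 in naive cells beside 9.53, 9.67 and 9.54 in erCriz0, erAlec0 and erLor0 cells, a span of about 0.2. WNT7B (chr22:45920366-45977162, minus strand) was paired with 21 peaks, whose median changes were -0.16, 0.24 and -0.13 in erCriz0, erAlec0 and erLor0. The peak over its start, at chr22:45976273-45977291, had H3K27ac levels of 6.82 in naive cells beside 7.12, 7.25 and 7.42 in erCriz0, erAlec0 and erLor0 cells, and no change passed the limit. A broad peak over the 3′ end of the gene, chr22:45908968-45924787, had the largest rise, with levels of 10.24, 10.31, 11.70 and 10.87 and a change of 1.46 in erAlec0. This peak was also paired with ENSG00000235091. None of the 21 peaks was up in erCriz0 or erLor0, and none was down in any line.

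WNT10A, a β-catenin ligand known from skin appendages and teeth, was not expressed by the limit used here, with rlog RNA levels of 1.93 in naive cells beside 1.67, 1.66 and 1.92 in erCriz0, erAlec0 and erLor0 cells. At so low a level rlog shrinks RNA changes toward 0. Most of the WNT10A peaks had lower H3K27ac in all 3 resistant lines. Of 5 peaks paired with WNT10A (chr2:218880852-218899581, plus strand), 3, 3 and 2 were down in erCriz0, erAlec0 and erLor0, and the median changes were -1.04, -1.34 and -0.94. The peak at chr2:218893040-218895453, inside the gene, had levels of 7.64 in naive cells beside 6.40, 5.82 and 6.24 in erCriz0, erAlec0 and erLor0 cells. The neighbouring peak at chr2:218895543-218897254 had levels of 6.92, 5.73, 5.01 and 5.50, and its change of -1.91 in erAlec0 was the largest fall of any of the 121 peaks. Naive cells were the highest at 4 of the 5 peaks, and the exception was the peak downstream of the gene at chr2:218908772-218909595, with levels of 5.36, 5.54, 5.66 and 5.99. The 5 peaks were also paired with LINC01494 and with WNT6 or RNU6-642P. Other peaks within 5 Mb had median changes of -0.18, -0.06 and 0.10. The window of the peak with the largest fall lies within the gene, overlaps no annotated exon and holds no TCF/LEF match:
WNT10A peak, chr2:218896249-218896548: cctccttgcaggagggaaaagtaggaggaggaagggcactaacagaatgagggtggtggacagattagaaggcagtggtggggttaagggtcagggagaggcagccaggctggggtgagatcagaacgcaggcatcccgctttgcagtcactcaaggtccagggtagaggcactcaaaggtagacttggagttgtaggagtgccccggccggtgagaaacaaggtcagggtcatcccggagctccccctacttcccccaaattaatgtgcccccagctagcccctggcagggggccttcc

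Among the receptors, FZD2 and FZD7 showed no RNA change past the limit beside higher H3K27ac at their starts in erAlec0 and erLor0. FZD2, a Frizzled receptor for several WNT ligands, had rlog RNA levels of 6.08 in naive cells beside 6.13, 5.87 and 6.01 in erCriz0, erAlec0 and erLor0 cells, a span of under 0.3. The peak over its start, at chr17:44556133-44557637, had H3K27ac levels of 5.88, 6.83, 7.35 and 7.63 in the same order, so that all 3 resistant lines were above naive cells. The changes were 0.95, 1.47 and 1.75, and 0.876% of all peaks rose at least as much in erLor0. FZD2 (chr17:44557484-44561262, plus strand) had 6 peaks, none of them paired with another gene, of which 0, 5 and 1 were up in erCriz0, erAlec0 and erLor0, with 0 down. In erAlec0 alone, 3 peaks between 13236 and 15144 bases upstream were also up. The most changed of them, at chr17:44542766-44543810, had levels of 3.60 in naive cells beside 3.21, 5.58 and 3.57 in erCriz0, erAlec0 and erLor0 cells. The window of the start peak is shown because its peak passed the limit in both erAlec0 and erLor0. It ends before the gene begins and holds no TCF/LEF match:
FZD2 start peak, chr17:44556735-44557034: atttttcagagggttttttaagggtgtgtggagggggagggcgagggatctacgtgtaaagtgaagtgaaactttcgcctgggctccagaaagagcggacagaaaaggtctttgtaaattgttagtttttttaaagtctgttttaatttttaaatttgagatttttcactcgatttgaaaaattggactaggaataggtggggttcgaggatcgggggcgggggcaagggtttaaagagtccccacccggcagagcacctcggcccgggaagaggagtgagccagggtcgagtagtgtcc

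FZD7, a closely related Frizzled receptor with an intronless coding sequence, had rlog RNA levels of 5.94 in naive cells beside 5.51, 5.49 and 5.73 in erCriz0, erAlec0 and erLor0 cells. All 3 resistant lines were below naive cells, by 0.22 to 0.45, and none passed the limit. Both peaks of FZD7 (chr2:202034587-202038445, plus strand) were higher in erAlec0 and erLor0 and near the naive level in erCriz0. Both were also paired with ENSG00000273209. The upstream peak at chr2:202032564-202033642 had H3K27ac levels of 4.38 in naive cells beside 4.31, 5.84 and 6.52 in erCriz0, erAlec0 and erLor0 cells. Its change of 2.14 in erLor0 was matched or passed by 0.236% of all peaks. The peak nearest the start, at chr2:202033850-202034526, had levels of 4.19, 4.17, 5.30 and 5.79. Other peaks within 5 Mb had median changes of -0.33, -0.26 and -0.12, so that the direction at FZD7 in erAlec0 and erLor0 was opposite to that of its surroundings. FZD2 and FZD7 are similar in sequence, and the assignment of RNA reads between Frizzled genes is uncertain to that extent.

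LRP6, the co-receptor that Frizzled receptors share for β-catenin signalling and the main binding partner of DKK1, had rlog RNA levels of 10.49 in naive cells beside 10.82, 10.61 and 10.60 in erCriz0, erAlec0 and erLor0 cells. All 3 resistant lines were slightly above naive cells, with changes of 0.32, 0.11 and 0.10. The peak over its start, at chr12:12265414-12269178, had H3K27ac levels of 8.83, 9.63, 9.74 and 9.69, and its changes of 0.80, 0.91 and 0.86 were alike in the 3 lines and below the limit. A larger difference lay 4216 bases upstream, at chr12:12271260-12274418, with levels of 5.57 in naive cells beside 5.41, 7.90 and 6.61 in erCriz0, erAlec0 and erLor0 cells. This peak was therefore up in erAlec0 and erLor0 and not in erCriz0, and the change of 2.33 in erAlec0 was the largest rise of any of the 121 peaks, matched or passed by 0.981% of all peaks. LRP6 (chr12:12116025-12267044, minus strand) had 18 peaks in all, and their median changes were 0.03, 0.05 and -0.09. All 18 were also paired with other genes, most of them with BCL2L14. In erCriz0 the largest rise of an LRP6 peak was 1.04, at chr12:12213991-12214766 within the gene. The largest fall there was -1.02, at chr12:12197744-12198105, a peak that fell by 1.02 in erAlec0 too. The window of the upstream peak overlaps no annotated gene and holds no TCF/LEF match:
LRP6 upstream peak, chr12:12272689-12272988: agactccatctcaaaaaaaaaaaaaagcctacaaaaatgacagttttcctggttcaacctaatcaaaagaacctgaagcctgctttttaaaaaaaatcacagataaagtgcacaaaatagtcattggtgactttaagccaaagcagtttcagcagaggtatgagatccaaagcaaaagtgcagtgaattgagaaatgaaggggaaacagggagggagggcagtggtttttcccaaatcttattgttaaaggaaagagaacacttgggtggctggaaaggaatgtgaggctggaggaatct

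**Figure D2:**
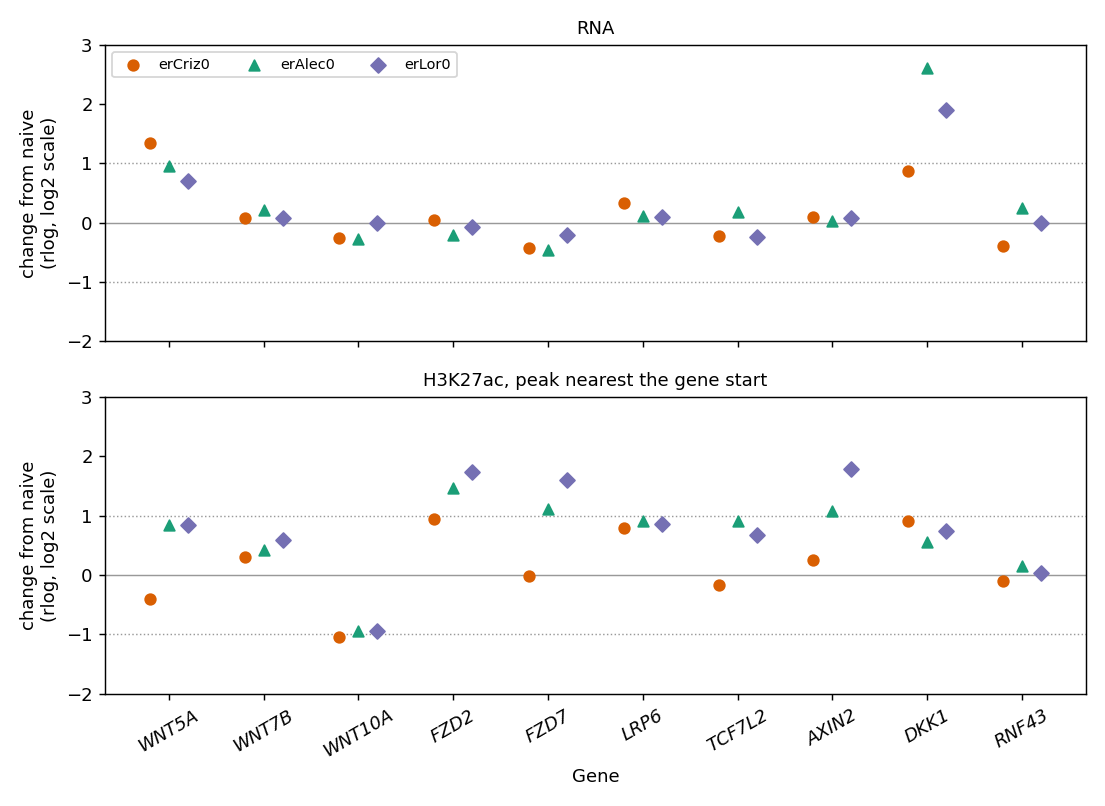
Change from naive cells (rlog, log2 scale) of RNA, above, and of the H3K27ac peak nearest the gene start, below, for each WNT gene, with 1 point per resistant line and dotted lines at the limits of 1 and -1. FZD2, FZD7 and AXIN2 have start peaks past 1 in erAlec0 and erLor0 beside RNA changes between -0.45 and 0.08. The AXIN2 RNA level was too low to show whether it changed. DKK1 has RNA changes of 2.61 and 1.89 beside start peak changes of 0.55 and 0.74.

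TCF7L2, the TCF/LEF factor that binds β-catenin at target genes, had rlog RNA levels of 9.97 in naive cells beside 9.75, 10.16 and 9.74 in erCriz0, erAlec0 and erLor0 cells. The lines lay within about 0.4 of each other, above naive cells in erAlec0 and below them in erCriz0 and erLor0. TCF7L2 (chr10:112950247-113167678, plus strand) had 26 peaks, whose changes differed in sign along the gene. The peak over the start, at chr10:112949483-112954442, had H3K27ac levels of 8.16 in naive cells beside 7.98, 9.07 and 8.84 in erCriz0, erAlec0 and erLor0 cells. It was also paired with the antisense gene ENSG00000233547. In an intron 67704 bases into the gene, the peak at chr10:113017951-113022083 had levels of 6.79, 8.40, 7.57 and 7.63, with erCriz0 the highest at a change of 1.60, which 1.32% of all peaks matched or passed. Further into the gene, the peak at chr10:113081114-113081549 had levels of 4.49 in naive cells beside 3.48, 2.99 and 3.11 in erCriz0, erAlec0 and erLor0 cells and was down in all 3 lines. The largest fall of a TCF7L2 peak was at chr10:113076272-113076851, with levels of 4.69, 4.07, 3.83 and 3.19 and a change of -1.51 in erLor0. The most distant stretch also held the broadest TCF7L2 peak, chr10:113084982-113101196, with levels of 10.86 in naive, 9.86 in erAlec0 and 10.38 in erLor0 cells and a change of 0.14 in erCriz0, and only its fall in erAlec0 reached the limit. In total 1, 2 and 3 peaks were up and 1, 4 and 2 were down in erCriz0, erAlec0 and erLor0. The intronic window is shown because it belongs to the largest rise in erCriz0 among the 121 peaks and holds 1 TCF/LEF match:
TCF7L2 intronic peak, chr10:113019867-113020166: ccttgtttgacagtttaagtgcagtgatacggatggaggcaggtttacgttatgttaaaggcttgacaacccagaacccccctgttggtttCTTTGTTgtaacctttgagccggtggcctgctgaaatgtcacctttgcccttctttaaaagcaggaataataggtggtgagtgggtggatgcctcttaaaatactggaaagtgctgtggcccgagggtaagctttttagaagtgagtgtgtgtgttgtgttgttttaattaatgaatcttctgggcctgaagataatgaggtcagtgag

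AXIN2, a scaffold of the β-catenin destruction complex and a widely used target of the pathway, was not expressed by the limit used here. Its rlog RNA levels were 1.68 in naive cells beside 1.76, 1.71 and 1.75 in erCriz0, erAlec0 and erLor0 cells, a span of under 0.1. At so low a level rlog shrinks changes toward 0, so these RNA values could not show whether AXIN2 changed. H3K27ac was higher along most of the gene in erAlec0 and erLor0. Of the 15 peaks paired with AXIN2 (chr17:65528563-65561648, minus strand), 15 exceeded their naive level in erAlec0, 14 did in erLor0 and 3 did in erCriz0. In erAlec0 8 were up, in erLor0 6 and in erCriz0 0, and none was down in any line. The median changes were -0.26, 1.06 and 0.91 in erCriz0, erAlec0 and erLor0, beside 0.08, -0.04 and -0.04 over 642 other peaks within 5 Mb.

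The peak over the AXIN2 start, at chr17:65559530-65562167, had H3K27ac levels of 6.65 in naive cells beside 6.91, 7.72 and 8.44 in erCriz0, erAlec0 and erLor0 cells. The peak with the largest rise, at chr17:65528963-65534855 toward the 3′ end, had levels of 7.50, 7.31, 9.55 and 9.69. Its changes of 2.05 in erAlec0 and 2.19 in erLor0 were matched or passed by 1.82% and 0.196% of all peaks. At both peaks erCriz0 cells lay within 0.3 of naive cells and the other two lines stood above them. All 15 peaks were also paired with ENSG00000266076, which lies on the same strand and shares 25.3% of the exon bases of AXIN2 and had an RNA value of 0 in all 4 lines, so the low RNA count of AXIN2 is uncertain where reads could belong to both. The central window of the AXIN2 start peak holds 1 TCF/LEF match.

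**Figure D3:**
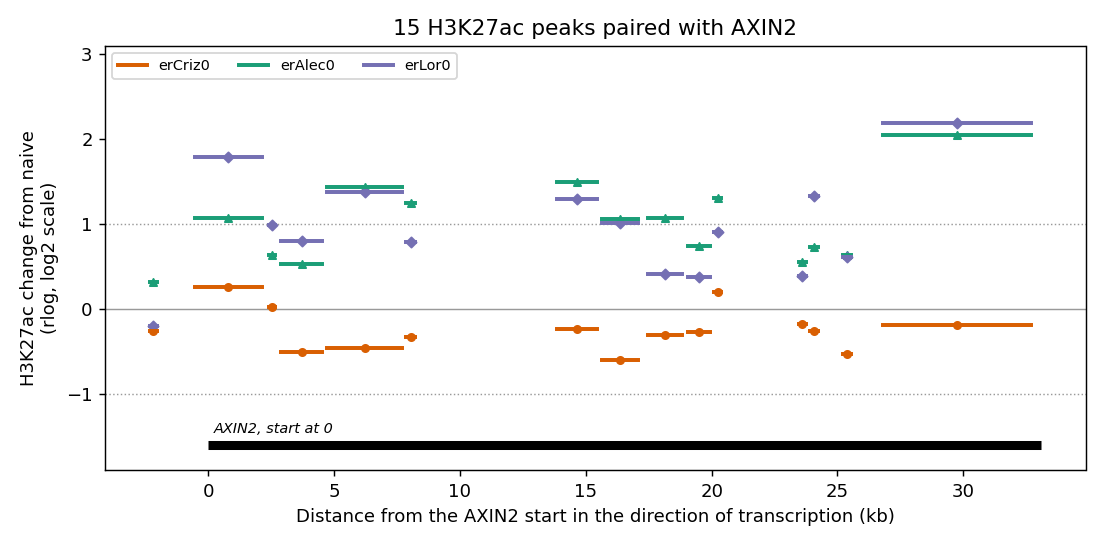
H3K27ac change from naive cells (rlog, log2 scale) at the 15 peaks paired with AXIN2, against the distance from the AXIN2 start in kb in the direction of transcription, with each bar as long as its peak and 1 colour per resistant line. The erAlec0 bars lie between 0.32 and 2.05 and the erCriz0 bars between -0.61 and 0.26, and the black bar marks the gene.

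DKK1, a secreted inhibitor that binds LRP5 and LRP6 and is itself a target of the pathway, had the largest RNA change of the 10 genes. Its rlog RNA level was 5.06 in naive cells beside 5.92, 7.67 and 6.95 in erCriz0, erAlec0 and erLor0 cells. Naive cells were the lowest and erAlec0 cells the highest of the 4 lines. The changes of 0.86, 2.61 and 1.89 correspond to 1.82-fold, 6.12-fold and 3.71-fold differences. Only 6 of the 12701 expressed genes, DKK1 among them, rose at least as much in erAlec0 and only 8 in erLor0, beside 469 in erCriz0. The lines ranked differently at the peak over the DKK1 start, at chr10:52313126-52315057, where the H3K27ac level was 6.24 in naive cells beside 7.15, 6.79 and 6.98 in erCriz0, erAlec0 and erLor0 cells. All 3 resistant lines were above naive cells, and the line with the smallest RNA change, erCriz0, had the highest level. An endothelial marker, CDH5, moved with DKK1, at 4.10 in naive cells beside 4.28, 5.78 and 5.64. The median of the 4 endothelial markers was 2.09 beside 2.16, 2.98 and 2.84. It lies midway between CDH5 and VWF in every line, so it follows CDH5 and is not a separate observation. KDR did not follow the same order, at 6.58 in naive cells beside 5.43, 6.02 and 7.01, and PECAM1 and VWF were near 0 in every line. The part of endothelial markers in the DKK1 change was not tested.

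DKK1 (chr10:52314281-52318042, plus strand) had 2 other peaks. The peak 90 bases beyond its 3′ end, at chr10:52318132-52318689, had a level of 4.26 in naive cells and changes of -0.88, 0.74 and -0.16, and was highest in erAlec0. The peak at chr10:52334150-52334512 had levels of 3.42 in naive cells beside 3.37, 2.00 and 2.52 in erCriz0, erAlec0 and erLor0 cells and was down in erAlec0. The start peak and the peak beyond the 3′ end were also paired with PRKG1. All 3 peaks were also paired with PRKG1-AS1, an antisense gene that shares 10.2% of the exon bases of DKK1 and had rlog RNA levels of 2.62, 2.63, 3.08 and 2.91. Without known strand these reads could not be told apart from DKK1, and the antisense level was lower than that of DKK1 in every line. The RefSeq promoter, here the 250 bases before the start from GRCh38.p14 on the gene's own strand, is shown because DKK1 was the most changed gene and its start peak covers these bases. It holds 1 TCF/LEF match, as 6.60% of 35116 RefSeq promoters did:
DKK1 promoter, chr10:52314031-52314280: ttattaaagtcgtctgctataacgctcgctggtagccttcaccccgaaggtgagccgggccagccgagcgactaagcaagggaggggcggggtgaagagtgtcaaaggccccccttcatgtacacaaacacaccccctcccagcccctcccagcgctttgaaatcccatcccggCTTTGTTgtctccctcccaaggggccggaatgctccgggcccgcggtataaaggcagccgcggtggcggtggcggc

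RNF43, a membrane ubiquitin ligase that removes Frizzled receptors from the cell surface, had rlog RNA levels of 6.84 in naive cells beside 6.45, 7.09 and 6.84 in erCriz0, erAlec0 and erLor0 cells. The level was lowest in erCriz0 and highest in erAlec0, and no change passed the limit. The peak over its start, at chr17:58409454-58419998, was strong in every line, with H3K27ac levels of 11.27, 11.16, 11.42 and 11.30. RNF43 (chr17:58352500-58417595, minus strand) had 23 peaks, of which 4 were down in erCriz0 and none passed the limit in either direction in erAlec0 or erLor0. All 23 were also paired with ENSG00000285897 and TSPOAP1-AS1, the start peak with HSF5 too, and the peak of largest fall with SUPT4H1 too. In erCriz0 21 of the 23 were below naive cells, beside 62345 of all 126470 peaks. The median change of RNF43 peaks was -0.68 in erCriz0, beside 0.13 in erAlec0 and -0.20 in erLor0. The largest fall was at chr17:58358582-58359019, with levels of 5.24 in naive cells beside 4.10, 4.76 and 4.66 in erCriz0, erAlec0 and erLor0 cells. RNF43 shares 68.4% of its exon bases with ENSG00000285897 on the same strand, whose rlog RNA level was between 0.40 and 0.51, so its own RNA count is uncertain to the extent that shared reads were set aside.

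Over all 121 peaks at WNT genes, 2, 23 and 13 were up in erCriz0, erAlec0 and erLor0, which is 1.65%, 19.0% and 10.7%. The share over all peaks was 7.00%, 14.1% and 7.45%. With 9, 9 and 4 peaks down, or 7.44%, 7.44% and 3.31%, beside 5.94%, 9.41% and 8.82% of all peaks, falls outnumbered rises in erCriz0 and rises outnumbered falls in erAlec0 and erLor0. Of the 121 peaks, 91 reached the log2 of 15, or 3.91, in at least 1 line, and of these 2, 18 and 10 were up and 8, 5 and 4 were down. The peaks named above that stayed below it are the LRP6 peak at chr12:12197744-12198105, the DKK1 peak at chr10:52334150-52334512 and 2 of the 3 distant upstream peaks of FZD2. The peaks that were up in erAlec0 and erLor0 came mainly from AXIN2, FZD2 and FZD7, which gave 15 of 23 and 9 of 13. Peaks of the same gene share a locus and are not replicates. At the peaks nearest the gene start, which for WNT10A lies 11675 bases into the gene, 0, 3 and 3 of the 10 genes were up and 1, 0 and 0 were down, while the nearest peaks of expressed genes were up at 4.45%, 7.34% and 7.90% and down at 0.535%, 1.53% and 0.992%. The 2 sets are not alike, here and for the medians that follow, and the WNT genes were chosen with earlier results of these data known. The 10 genes include the unexpressed AXIN2, up in erAlec0 and erLor0, and WNT10A, the 1 that was down. Start peaks were higher in the resistant lines over all expressed genes too, with median changes of 0.34, 0.25 and 0.40, beside 0.12, 0.88 and 0.80 over the 10 WNT genes. FZD2 and FZD7 were not alone in combining higher start H3K27ac with RNA that was not higher. Of the 932 expressed genes with a start peak up in erAlec0, 404 or 43.3% had an RNA change of 0 or less, beside 49.7% of all expressed genes. In erLor0 these were 334 of 1003 or 33.3%, beside 50.6%.

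**Figure D4:**
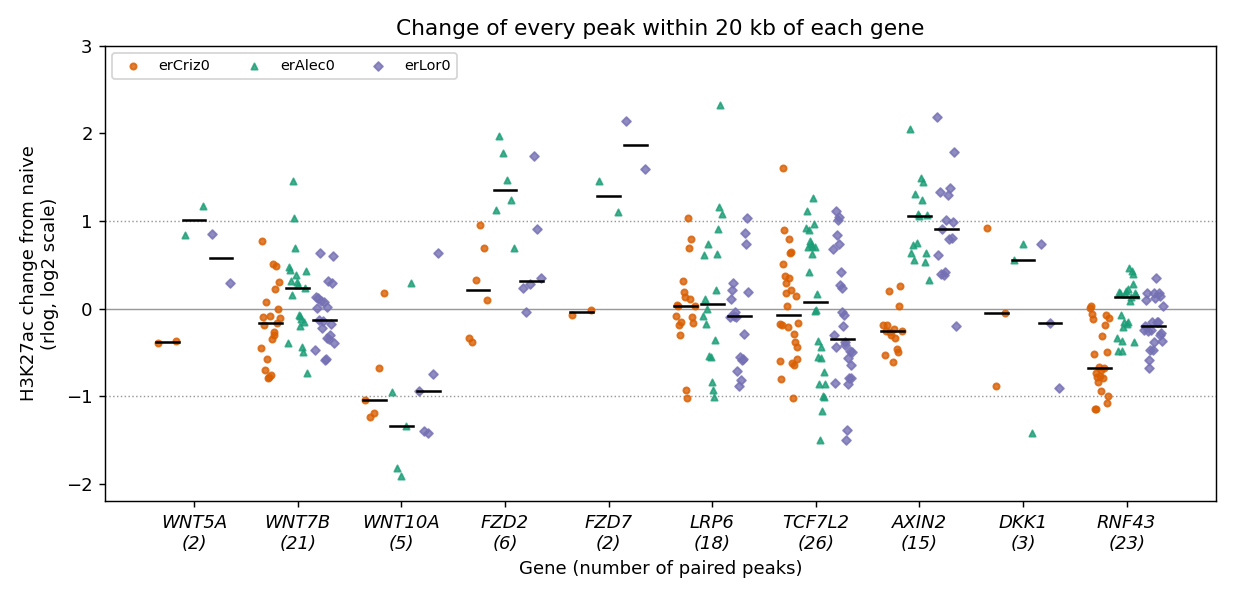
H3K27ac change from naive cells (rlog, log2 scale) at each of the 121 peaks within 20 kb of the WNT genes, with 1 point per peak and resistant line, a black bar at the median and dotted lines at the limits. The AXIN2 medians are 1.06 in erAlec0 and 0.91 in erLor0 against -0.26 in erCriz0, and the WNT10A medians lie between -1.34 and -0.94.

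The rest of the pathway was taken from 8 lists, which share some genes and hold 114 other genes in all. Of these, 109 had a value and 65 were expressed. In erCriz0 1 was up and 2 were down, in erAlec0 2 were up and 1 was down, and in erLor0 2 were up and 1 was down. That is 1.54% to 3.08% of the 65 genes in each direction, beside the 0.740% to 2.65% of all expressed genes given above. The median RNA changes were -0.21, 0.04 and 0.10. All 6 genes that passed the limit in any line are named here.

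Of 12 other receptors only ROR1 passed the limit, and it was down in all 3 resistant lines. ROR1, a receptor tyrosine kinase-like protein that binds WNT5A, had rlog RNA levels of 9.44 in naive cells beside 8.43, 7.95 and 8.10 in erCriz0, erAlec0 and erLor0 cells. WNT5A and its receptor ROR1 thus lay on opposite sides of naive cells in each resistant line, with changes of 1.34 and -1.01, 0.96 and -1.49, and 0.70 and -1.34. The fall of ROR1 in erCriz0 was -0.95 once the libraries were centred on expressed genes, which is no longer past the limit. Of the 3 other expressed ligands, 2 genes of ligand secretion, 4 other inhibitors and 18 cytoplasmic genes of the pathway, none passed the limit. All 4 other expressed inhibitors were below naive cells in erCriz0, with a median change of -0.63, and DKK1 at 0.86 was above. In that line 52.1% of all expressed genes were at or below naive cells.

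Among 10 nuclear factors, TLE1 and TLE2, co-repressors that bind TCF/LEF factors, were up in erAlec0. TLE2 had rlog RNA levels of 6.07 in naive cells beside 6.40, 7.25 and 6.98 in erCriz0, erAlec0 and erLor0 cells, all 3 resistant lines above naive cells. TLE1 had levels of 7.80, 7.76, 8.87 and 8.20. Among 11 expressed target genes, CD44, a hyaluronan receptor, had levels of 10.25 in naive cells beside 11.57, 10.88 and 11.76 in erCriz0, erAlec0 and erLor0 cells and was up in erCriz0 and erLor0. The other 10 did not pass the limit in any line, and 9 of the 11 were below naive cells in erCriz0, with a median change of -0.51 beside -0.03 in erAlec0 and 0.02 in erLor0. NOTUM and ZNRF3, with changes of -0.69 and -0.56 in erCriz0, are also listed as inhibitors. The inhibitor and target counts are therefore not separate observations. Of all expressed genes, 52.1% were at or below naive cells in erCriz0, with a median change of -0.02. Of 9 planar polarity genes, CELSR2 was down in erCriz0, with levels of 7.86, 6.83, 7.19 and 8.06, and its change of -1.03 there became -0.98 once the libraries were centred. VANGL1 was up in erLor0, with levels of 9.36 in naive cells beside 9.02, 8.65 and 10.57 in erCriz0, erAlec0 and erLor0 cells. The median H3K27ac change in erLor0 was 1.37 over the peaks of VANGL1 and 1.33 over the other peaks within 5 Mb, and the part of this broad region in the RNA change was not tested.

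**Figure D5:**
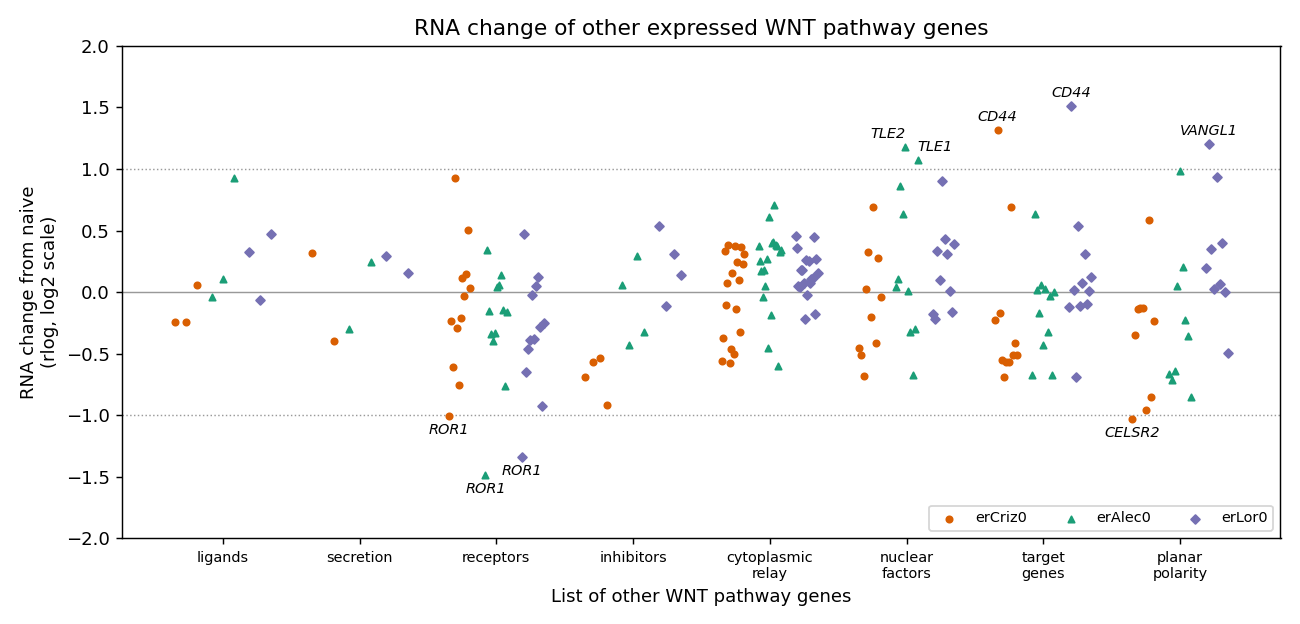
RNA change from naive cells (rlog, log2 scale) of the 65 other expressed WNT pathway genes, by list on the horizontal axis, with 1 point per gene and resistant line and dotted lines at the limits. Genes past a limit are named, and ROR1 lies between -1.49 and -1.01 in the 3 lines.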

How the data were processed

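RNA-seq and H3K27ac ChIP-seq of 4 H3122 lines were examined. For RNA the authors used HISAT2 on hg38 and HTSeq-count, and for ChIP they aligned reads with BWA, removed duplicates, called peaks with MACS2, merged them over the 4 samples and counted with featureCounts. The strand setting of the RNA counting and tool versions are not given in the sources used here. The authors deposited rlog values, on a log2 scale, made from these counts with DESeq2, in 1 table of 295240 pairs of a peak and a gene up to 20 kb apart. Its columns of the authors' own correlations between peak and gene values, with p-values, were not used.

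The deposited log2 values do not give back read totals, so depth is unknown and no counting interval is given, and rlog shrinks changes of low features toward 0. RNA and peaks were scaled separately. No column of sample values was left unmapped. The series holds 8 samples, of which erCriz1, erLor1, Lor 2w and the pooled input were not analysed here. With 1 library per line no test was run, and calls used the limits on changes of the study's methods. Its exclusion of peaks under 15 reads, taken as an rlog value of 3.91, was an alternative, since the deposited table holds 126470 peaks, of which 86432 reach it. The named genes are the 10 WNT genes, each other pathway gene past the RNA limit in at least 1 line, for each WNT gene the peak nearest its start and its peaks of largest rise and fall past the limit, and the 2 genes nearest in pattern to a WNT gene past the limit. A few further peaks were named after their values were seen: the downstream WNT10A peak, the broad TCF7L2 peak, the second FZD7 and WNT5A peaks and the DKK1 peak beyond its 3′ end. NOTUM and ZNRF3 were named because the inhibitor and target lists share them. The WNT genes and the lists were chosen with earlier results of these data known. Of 43869 gene identifiers, 43669 matched GENCODE release 44, and 5 listed pathway genes (NDP, RSPO3, RSPO4, WNT9B and FRZB) were not analysed here. One immune marker beyond the 4 counted and the AXIN2 sequence windows are not reported here. Gene positions are those of the deposited table. RefSeq promoters were matched for WNT5A, WNT10A, TCF7L2, DKK1 and RNF43 only. Alternatives were a limit of 1.5-fold, a limit of 2 in rlog units, centring, quantile normalization, filters on low genes and peaks, peaks within 5 kb, peaks paired with 1 gene, subtraction of the median of peaks within 5 Mb and, added after the data were seen, no filter for the pathway genes. Scripts were tested on simulated data and run with Python 3.11.15, numpy 2.4.6, pandas 2.3.3 and matplotlib 3.10.9.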

Additional observations from a re-analysis of the deposited data

Results flagged for a closer look

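In 5 cases a change past the limit in 1 resistant line stood beside a change of at least 0.5 in the opposite direction in another, and with 1 library per line these differences were not tested. VANGL1 RNA changed by 1.20 in erLor0, where H3K27ac of its broad region was also higher, and by -0.71 in erAlec0. An intronic WNT7B peak at chr22:45925233-45925995 changed by 1.04 in erAlec0 and -0.57 in erCriz0. The LRP6 peak at chr12:12213991-12214766 changed by 1.04 in erCriz0 and -0.58 in erLor0. The AXIN2 peak at chr17:65544560-65546017 changed by 1.06 in erAlec0 and 1.01 in erLor0 but by -0.61 in erCriz0. A TCF7L2 peak at chr10:112954993-112955760, whose central window holds a TCF/LEF match, changed by 1.12 in erAlec0 and -0.60 in erCriz0.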

How the results depend on the processing

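No paired analysis was possible because each line has 1 library, and no replicate could be left out. Counts are given for erCriz0, erAlec0 and erLor0 in this order. At a limit of 1.5-fold, 2, 2 and 2 of the 10 WNT genes were up in RNA, 4, 9 and 4 other pathway genes were up and 9, 9 and 4 down, and 12, 44 and 29 WNT peaks were up and 30, 16 and 17 down. At a limit of 2 on the log2 scale, 0, 1 and 0 WNT genes were up, no other pathway gene passed in either direction, and 0, 2 and 2 WNT peaks were up and 0 down. Centring left 0 other pathway genes down in erCriz0, where quantile normalization left 1. Centring of peaks left 4 WNT peaks down in erCriz0, and a peak filter left 5 down in erAlec0. With peaks paired with 1 gene, 1, 7 and 3 were up and 1, 4 and 2 down. Centring shifted peak changes by up to 0.10, in erLor0, and the median of AXIN2 there became 1.01. The median of AXIN2 in erAlec0 became 0.91 under quantile normalization. Against the regional median the WNT10A median in erCriz0 became -0.87 and that of WNT5A in erAlec0 0.81. The cause of these differences was not tested, beyond that fewer peaks entered the filtered sets. Of 669 single values under other settings, 599 kept their call and moved by less than 0.5. A further 39 no longer passed the limit and 30 newly passed it. The remaining 1, the FZD2 median in erLor0, moved by 0.5 or more and was 0.91 over peaks within 5 kb. No value that had passed a limit reversed its direction. However, a changed limit leaves every value as it is, and filters leave the value of a single gene or peak as it is. Many of the 669 values could therefore not have reversed. Depth is unknown, so low features such as WNT10A and AXIN2 RNA cannot be given an error.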

Other observations

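The genes whose RNA followed WNT5A and DKK1 most closely were sought among 12618 expressed genes outside the lists, by the Euclidean distance over the 3 RNA changes. Nearest to WNT5A was PLGRKT, a plasminogen receptor, at a distance of 0.045, with rlog RNA levels of 7.18 in naive cells beside 8.52, 8.12 and 7.91 in erCriz0, erAlec0 and erLor0 cells. CPHL1P followed at 0.15, with changes of 1.47, 1.02 and 0.76. Nearest to DKK1 was PRODH, the mitochondrial proline dehydrogenase, at 0.39, with levels of 6.22, 6.89, 8.69 and 8.42. MSLN, the gene of the cell surface protein mesothelin, followed at 0.81, with levels of 3.96, 4.21, 6.11 and 5.62.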
